A study of Mus musculus with 10 samples.

Results

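The Cd300 receptor family was described in 4 genes of 16860 measured in mouse bone marrow-derived macrophages. The family list held 5 Ensembl gene IDs, paired in order with the names Cd300lb (ENSMUSG00000063193), Cd300a (ENSMUSG00000034652), Cd300lf (ENSMUSG00000047798), Cd300ld (ENSMUSG00000034641) and Cd300e (ENSMUSG00000048498). Cd300e is not analysed here, since its ID has no row in the table used. The list was drawn up with earlier results of these arrays known, and which values it was selected on is not fully recorded. Cd300lb had been named for its low level with LPS in Atf3-/- cells and for the difference between its LPS responses. Differences between LPS and no LPS, the differences between those responses, and every difference of Cd300lb are therefore counted as used and given as a description without a test. Tests are given for the genotype differences of Cd300a, Cd300lf and Cd300ld. No use of these in drawing up the list is recorded, but it cannot be told whether they were in view, and their p-values are to be read with that limit.

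Macrophages were grown from femoral marrow of C57BL/6J mice, all labelled female and aged 8 to 12 weeks, with recombinant human macrophage colony-stimulating factor. The groups were wild type without LPS (n = 3 arrays), wild type with LPS (n = 2), Atf3-/- without LPS (n = 3) and Atf3-/- with LPS (n = 2), and stimulated cells received LPS at 10 ng/mL for 4 h. Atf3 encodes a stress-induced transcription factor of the ATF/CREB family, and no further detail of the Atf3-/- allele was used here. LPS, a lipid-linked sugar from the envelope of Gram-negative bacteria, activates macrophages through a Toll-like receptor. Separate mice or cultures behind the arrays of a group are not stated in the labels, so a p-value here reflects array-to-array spread that may be technical only. RNA was measured on Affymetrix Mouse Genome 430 2.0 arrays as 1 log2 value per gene and array, and the median array value lay between 5.45 and 5.56. Because the table pairs no ID with a gene name, macrophage markers and the targeted gene itself were not checked here.

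The arrays also split into 2 states that cut across the labelled groups. The log2 value of ENSMUSG00000086503 was 8.95 to 9.57 in one state and 2.94 to 3.76 in the other. ENSMUSG00000069045 split the same arrays the opposite way, at 2.94 to 3.26 where the first was high and 8.29 to 8.71 where it was low. Since the files name neither gene, the label female was not checked against named sex-linked genes, and whether the states are a difference in sex between the mice was not tested. The high state held 3 of 3 wild type arrays without LPS, 0 of 2 with LPS, 1 of 3 Atf3-/- arrays without LPS (replicate 3) and 1 of 2 with LPS (replicate 2). In wild type, state and LPS cannot be told apart, so the response of wild type to LPS has no value within a state, and the values within a state for the other contrasts are given below. Each rests on 1 to 3 arrays a side and has no test.

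CD300 molecules are membrane proteins of myeloid cells with an immunoglobulin-like domain outside the cell. Inhibitory members carry tyrosine-based inhibitory motifs in a long cytoplasmic tail and recruit phosphatases, while activating members have short tails and signal through adaptor proteins that carry activating motifs. Several members bind lipids such as phosphatidylserine, which dying cells expose, and so tune the uptake of apoptotic cells and the strength of inflammatory signals. In the RefSeq annotation of GRCm38.p6, 11 of 12 genes named Cd300 lie together on chromosome 11 with 0 other protein-coding genes between them, in the order Cd300a, Cd300lb, Cd300c, Cd300ld, Cd300c2, Cd300ld4, Cd300ld2, Cd300ld5, Cd300ld3, Cd300e and Cd300lf. Cd300a and Cd300lf are thus the outermost genes of the cluster.

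The sequences around the start sites of the 4 measured genes are shown because the genes are neighbours whose levels were all lower with LPS. Each window holds 250 bases before and 50 after the start, 5′ to 3′ on the gene's strand, from RefSeq on GRCm38.p6. The windows lie at chr11:114934322-114934621 (minus strand) for Cd300lb, chr11:114989837-114990136 (minus) for Cd300ld, chr11:114889791-114890090 (plus) for Cd300a and chr11:115133943-115134242 (minus) for Cd300lf. Capitals mark GAGGAAGT, a form of the site bound by PU.1, the Ets-family factor of macrophages.
Cd300lb: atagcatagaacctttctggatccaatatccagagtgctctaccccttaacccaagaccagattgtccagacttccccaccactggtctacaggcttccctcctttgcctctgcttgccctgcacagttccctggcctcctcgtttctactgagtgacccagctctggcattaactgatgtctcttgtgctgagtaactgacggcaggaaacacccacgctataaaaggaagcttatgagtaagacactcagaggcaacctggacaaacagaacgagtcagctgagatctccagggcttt
Cd300ld: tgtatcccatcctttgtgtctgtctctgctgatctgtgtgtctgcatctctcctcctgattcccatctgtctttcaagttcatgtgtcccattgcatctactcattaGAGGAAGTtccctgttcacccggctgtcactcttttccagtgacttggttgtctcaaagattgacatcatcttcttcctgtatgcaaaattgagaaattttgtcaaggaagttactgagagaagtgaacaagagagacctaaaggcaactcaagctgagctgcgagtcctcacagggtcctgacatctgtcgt
Cd300a: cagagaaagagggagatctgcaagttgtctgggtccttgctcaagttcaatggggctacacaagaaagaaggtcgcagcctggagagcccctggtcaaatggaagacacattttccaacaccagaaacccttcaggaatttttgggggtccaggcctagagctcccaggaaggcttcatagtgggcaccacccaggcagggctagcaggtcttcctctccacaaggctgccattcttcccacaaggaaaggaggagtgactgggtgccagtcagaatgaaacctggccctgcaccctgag
Cd300lf: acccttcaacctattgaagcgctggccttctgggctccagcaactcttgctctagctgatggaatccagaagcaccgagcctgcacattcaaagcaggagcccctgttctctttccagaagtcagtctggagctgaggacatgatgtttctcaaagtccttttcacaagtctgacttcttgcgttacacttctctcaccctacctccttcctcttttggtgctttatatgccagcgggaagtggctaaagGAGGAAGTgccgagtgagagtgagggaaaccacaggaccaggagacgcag

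GAGGAAGT occurred in 2 of the 4 windows when both strands were searched. It began 143 bases before the start in Cd300ld and at the first transcribed base in Cd300lf, on the strand of the gene in both. It was held by 3.20% of the 32851 RefSeq windows of this length. Cd300ld3, Cd300ld4 and Cd300ld5 carried it too, each 187 bases before the start. TGACGTCA, the palindromic cyclic AMP response element bound by ATF/CREB factors, was found in 0 of the 4 windows and in 1.79% of all windows. TGACTCA, the AP-1 element, was found in 0 of the 4 and in 5.20% of all, and TTGCGCAA, a C/EBP site, in 0 of the 4 and in 0.183% of all. No match says only that these letters are not in these windows. The window of Cd300ld aligned with those of Cd300ld4 and Cd300ld5 over 257 columns with 87.5% identical bases, and with that of Cd300ld3 over 255 columns with 87.1%. Cd300ld thus has close copies beside it, and whether its probes also took up their transcripts was not tested. The windows of the other measured genes had no alignment of more than 55 columns with any window of the family.

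All 4 genes were lower with LPS in both genotypes, and they differed in how far. Fewer cells with a transcript and less of it per cell cannot be told apart in these bulk samples. In wild type all 4 of 4 lay at least 2-fold lower with LPS, as did 7.45% of all 16860 genes. In Atf3-/- all 4 of 4 did, against 6.13% of all genes. Both conditions held together for 4.42% of all genes. The groups with and without LPS did not overlap for any of the 4 genes, which was also true of 60.0% of all genes in wild type and 66.0% in Atf3-/-. These contrasts were in view when the genes were chosen, so nothing is read from the counts. The median log2 difference of the 4 genes was -1.46 in wild type and -1.53 in Atf3-/-, beside medians over all genes of 0.02 and 0.06.

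**Figure D1:**
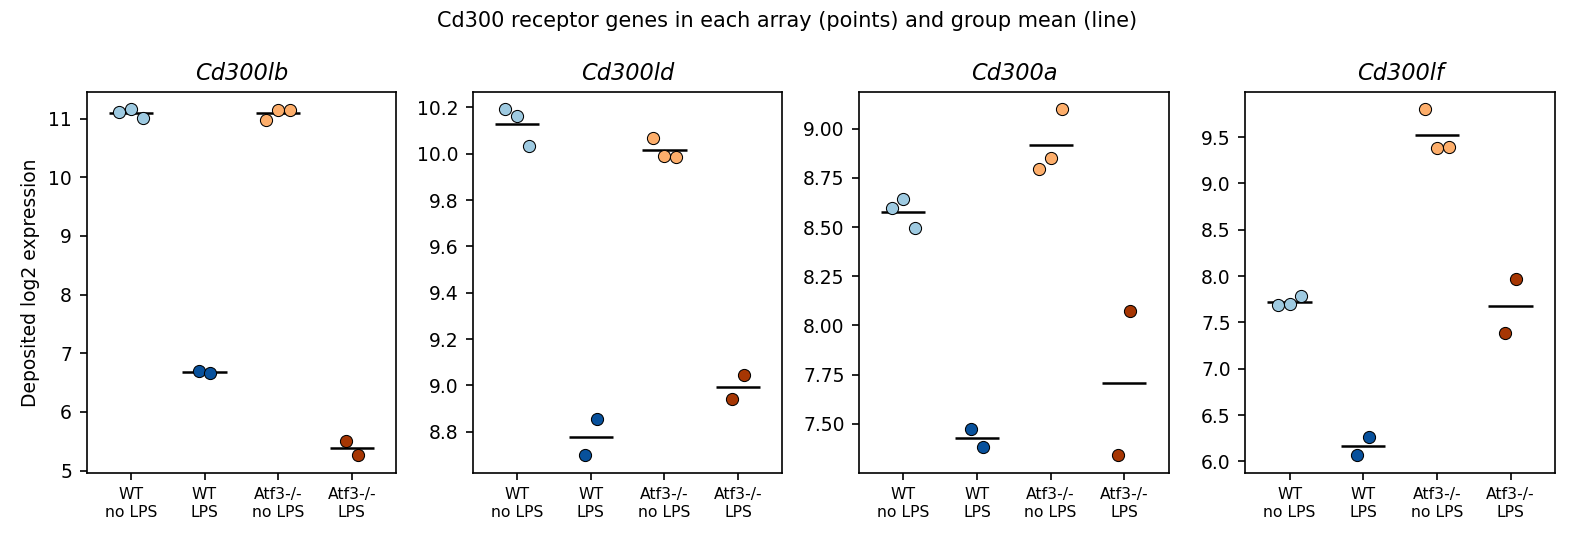
Deposited log2 expression (y axis, a separate range in each panel) of Cd300lb, Cd300ld, Cd300a and Cd300lf in each of the 10 arrays (points) by group (x axis), with the group mean as a line. Cd300lb lies near 11.1 in both genotypes without LPS and lowest in Atf3-/- with LPS, while Cd300lf is higher in Atf3-/- than in wild type with and without LPS.

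Among the activating receptors, Cd300lb pairs with the adaptor encoded by Tyrobp, and its product has been reported in mice to bind phosphatidylserine and also LPS. Without LPS its log2 values were 11.11, 11.16 and 11.00 in wild type and 10.98, 11.15 and 11.15 in Atf3-/-. With LPS they were 6.70 and 6.66 in wild type and 5.51 and 5.26 in Atf3-/-. The genotypes overlapped without LPS, and with LPS both Atf3-/- arrays lay below both wild type arrays.

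In wild type the mean of Cd300lb was 11.09 ± 0.08 (SD, n = 3) without LPS and 6.68 ± 0.03 (SD, n = 2) with LPS, a log2 difference of -4.41 (SE 0.11) or 21.3-fold lower. In Atf3-/- the mean was 11.09 ± 0.10 (SD, n = 3) without LPS and 5.38 ± 0.18 (SD, n = 2) with LPS. That difference of -5.71 (SE 0.11) was 52.3-fold lower, and no other gene on the array had a lower fitted value in this contrast. In wild type 7 genes had a lower one. The background of this probeset was not measured, so that folds from its levels with LPS depend on the submitters' background correction. The difference between genotypes was -0.0023 (SE 0.10) without LPS and -1.30 (SE 0.12) with LPS, the latter 2.46-fold lower in Atf3-/-. The response difference (Atf3-/- minus wild type) of -1.30 (SE 0.15) on the log2 scale thus came from the level with LPS. A genotype difference within 0.1 of 0 without LPS together with a level at least 2-fold lower in Atf3-/- with LPS was found for 18 genes, 0.107% of all. This combination was set after the values of Cd300lb were seen, and nothing is read from its count. Within arrays of the low state the genotype difference with LPS was -1.17 (2 wild type arrays and 1 Atf3-/- array), and within the high state the difference without LPS was 0.06 (3 wild type arrays and 1 Atf3-/- array). The LPS difference in Atf3-/- was -5.55 within the low state and -5.89 within the high state.

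Cd300ld is an activating receptor that pairs with the Fc receptor gamma chain. Without LPS its log2 values were 10.19, 10.16 and 10.03 in wild type and 10.07, 9.99 and 9.99 in Atf3-/-. With LPS they were 8.70 and 8.86 in wild type and 8.94 and 9.05 in Atf3-/-. The genotypes overlapped without LPS and were separated by 0.08 with LPS. The LPS difference was -1.35 (SE 0.10) in wild type and -1.02 (SE 0.10) in Atf3-/-, or 2.55-fold and 2.03-fold lower. Cd300ld was the only one of the 4 genes with a response difference above 0, at 0.33 (SE 0.14). Within the low state its LPS difference in Atf3-/- was -1.09 and its genotype difference with LPS 0.16. Within the high state its LPS difference in Atf3-/- was -0.94 and its genotype difference without LPS -0.14.

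Of the inhibitory receptors, Cd300a encodes a receptor for phosphatidylserine and phosphatidylethanolamine that recruits tyrosine phosphatases. Without LPS its log2 values were 8.60, 8.64 and 8.49 in wild type and 8.80, 8.85 and 9.10 in Atf3-/-. With LPS they were 7.47 and 7.38 in wild type and 7.34 and 8.07 in Atf3-/-. Without LPS all Atf3-/- arrays lay above all wild type arrays, while with LPS the groups overlapped because the Atf3-/- arrays lay on either side of wild type. The LPS difference was -1.15 (SE 0.18) in wild type and -1.21 (SE 0.18) in Atf3-/-, or 2.22-fold and 2.31-fold lower. The response difference was -0.06 (SE 0.25). It was 0.31 without Atf3-/- LPS replicate 1 and -0.43 without replicate 2.

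Cd300a was also higher in the Atf3-/- arrays of the high state in both conditions. With the state as a covariate its LPS difference in wild type was -0.68 and its response difference -0.61. Both rest on a state effect that came from the Atf3-/- arrays alone and was assumed equal in wild type, where it cannot be checked. Within the low state the Atf3-/- LPS difference was -1.48 and within the high state -1.03, with 1 LPS array in each. The genotype difference of Cd300a was 0.52 without LPS within the high state and -0.088 with LPS within the low state. The part of the state in the values of Cd300a was not tested.

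Cd300lf encodes a receptor with inhibitory motifs that binds phosphatidylserine, takes part in the uptake of apoptotic cells and serves as the entry receptor of murine norovirus. Without LPS its log2 values were 7.68, 7.70 and 7.78 in wild type and 9.80, 9.39 and 9.39 in Atf3-/-. With LPS they were 6.06 and 6.26 in wild type and 7.38 and 7.97 in Atf3-/-. All Atf3-/- arrays lay above all wild type arrays of the same condition. The LPS difference was -1.56 (SE 0.17) in wild type and -1.85 (SE 0.17) in Atf3-/-, or 2.94-fold and 3.61-fold lower. The response difference was -0.29 (SE 0.24), and -0.0036 without Atf3-/- LPS replicate 1 and -0.59 without replicate 2. The LPS difference in Atf3-/- was -2.21 within the low state and -1.43 within the high state.

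Across the groups Cd300lf was highest in Atf3-/- without LPS and lowest in wild type with LPS. Between them lay wild type without LPS at 7.72 ± 0.05 (SD, n = 3) and Atf3-/- with LPS at 7.67 ± 0.41 (SD, n = 2), which overlapped and differed by -0.05 on the log2 scale. The Atf3-/- arrays with LPS lay on either side of the 3 wild type arrays without it. The order was otherwise in the other genes. Cd300lb and Cd300ld had both groups without LPS on top, overlapping each other. With LPS, wild type lay above Atf3-/- for Cd300lb and below it for Cd300ld. Cd300a was highest in Atf3-/- without LPS and next in wild type without LPS, above the overlapping groups with LPS.

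**Figure D2:**
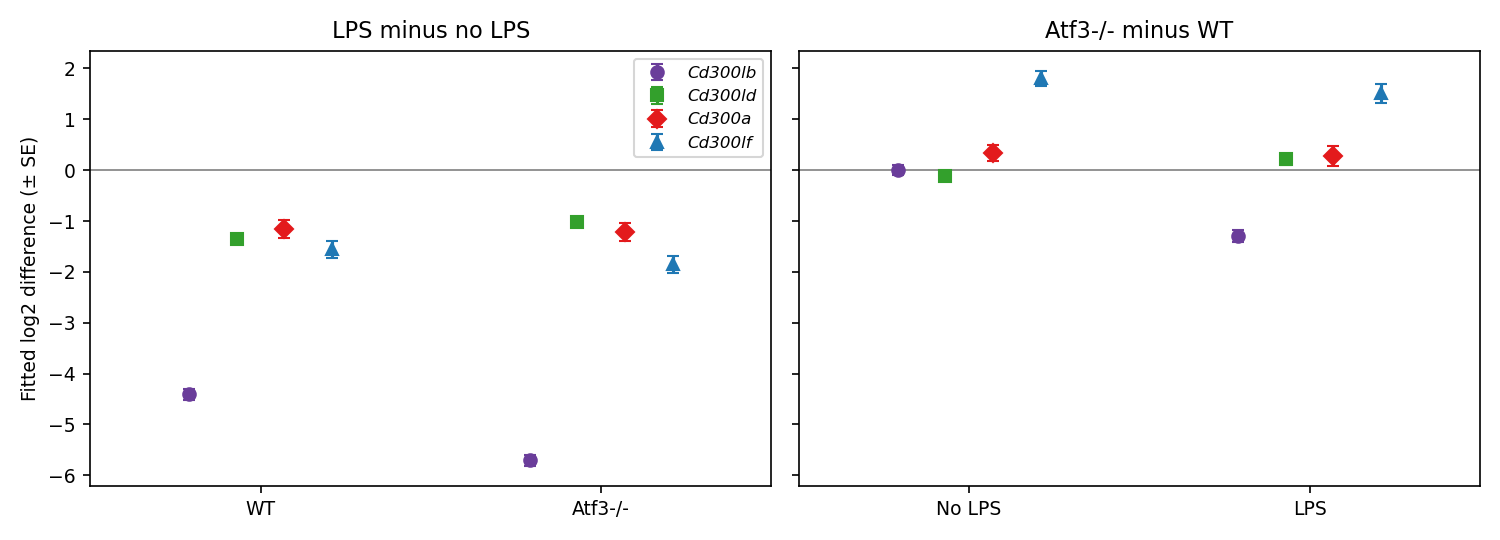
Fitted log2 differences (y axis) with standard errors (bars) of the 4 genes for LPS minus no LPS in each genotype (left panel) and for Atf3-/- minus wild type in each condition (right panel). Cd300lb has by far the lowest LPS differences, -4.41 and -5.71, and Cd300lf the highest genotype differences, 1.81 and 1.51.

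The comparison of genotypes asked whether the receptors' levels differed between arrays labelled Atf3-/- and wild type. Cd300lf was higher in Atf3-/- macrophages both without and with LPS, and no difference of Cd300a or Cd300ld passed the test in either condition. Without LPS 1 of the 3 tested genes differed, beside 12.8% of all genes, 7.16% being higher in Atf3-/-. With LPS 1 of the 3 differed, beside 3.93% of all genes, 1.96% being higher. Of all genes 0.676% were higher in both conditions. Tests were two-sided and made with limma, and p-values were adjusted by Benjamini-Hochberg across the 16860 genes of each contrast, with a threshold of 0.05.

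Without LPS Cd300lf had a mean of 9.53 ± 0.24 (SD, n = 3) in Atf3-/- against 7.72 ± 0.05 (SD, n = 3) in wild type. The log2 difference was 1.81 (SE 0.15, 95% interval 1.47 to 2.14, limma adjusted p = 4.71e-05). This was 3.50-fold higher, with an interval of 2.77-fold to 4.42-fold, and 26 genes had a larger difference. All 3 Atf3-/- arrays lay at least 1.61 above the highest wild type array. Within the high state the difference was 1.67, between 1 Atf3-/- array and 3 wild type arrays.

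With LPS Cd300lf had a mean of 7.67 ± 0.41 (SD, n = 2) in Atf3-/- against 6.16 ± 0.14 (SD, n = 2) in wild type. The log2 difference was 1.51 (SE 0.19, 95% interval 1.10 to 1.92, limma adjusted p = 0.00114). This was 2.85-fold higher, with an interval of 2.14-fold to 3.79-fold, and 34 genes had a larger difference. Within the low state the difference was 1.22, between 1 Atf3-/- array and 2 wild type arrays. The call rests on a spread shared by all 4 groups, since a fit of only the 4 arrays compared gave the same difference with a limma adjusted p of 0.0511.

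Cd300a differed by 0.34 on the log2 scale without LPS (SE 0.16, 95% interval -0.01 to 0.69, limma adjusted p = 0.197), higher in 3 of 3 Atf3-/- arrays. Such a separation of the groups was found for 34.1% of all genes. With the state as a covariate, whose effect was assumed equal in wild type, the difference was 0.65 (limma adjusted p = 0.0166). It was also past the threshold without either of the Atf3-/- LPS arrays, at 0.34 with a limma adjusted p of 0.0483 each time. Across the alternatives tried the limma adjusted p ran from 0.0166 to 0.455. With LPS it differed by 0.28 (SE 0.20, 95% interval -0.15 to 0.71, limma adjusted p = 0.580). The latter was -0.088 without Atf3-/- LPS replicate 2 and 0.65 (limma adjusted p = 0.0324) without replicate 1, so that its direction was set by single arrays.

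Cd300ld differed by -0.11 without LPS (SE 0.09, 95% interval -0.31 to 0.08, limma adjusted p = 0.454). With LPS it differed by 0.22 (SE 0.11, 95% interval -0.02 to 0.45, limma adjusted p = 0.377), higher in 2 of 2 Atf3-/- arrays. With LPS the groups were separate for 41.0% of all genes. Neither interval reached a difference as large as that of Cd300lf, whose intervals began at 1.47 and 1.10. The same held for Cd300a in both conditions.

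**Figure D3:**
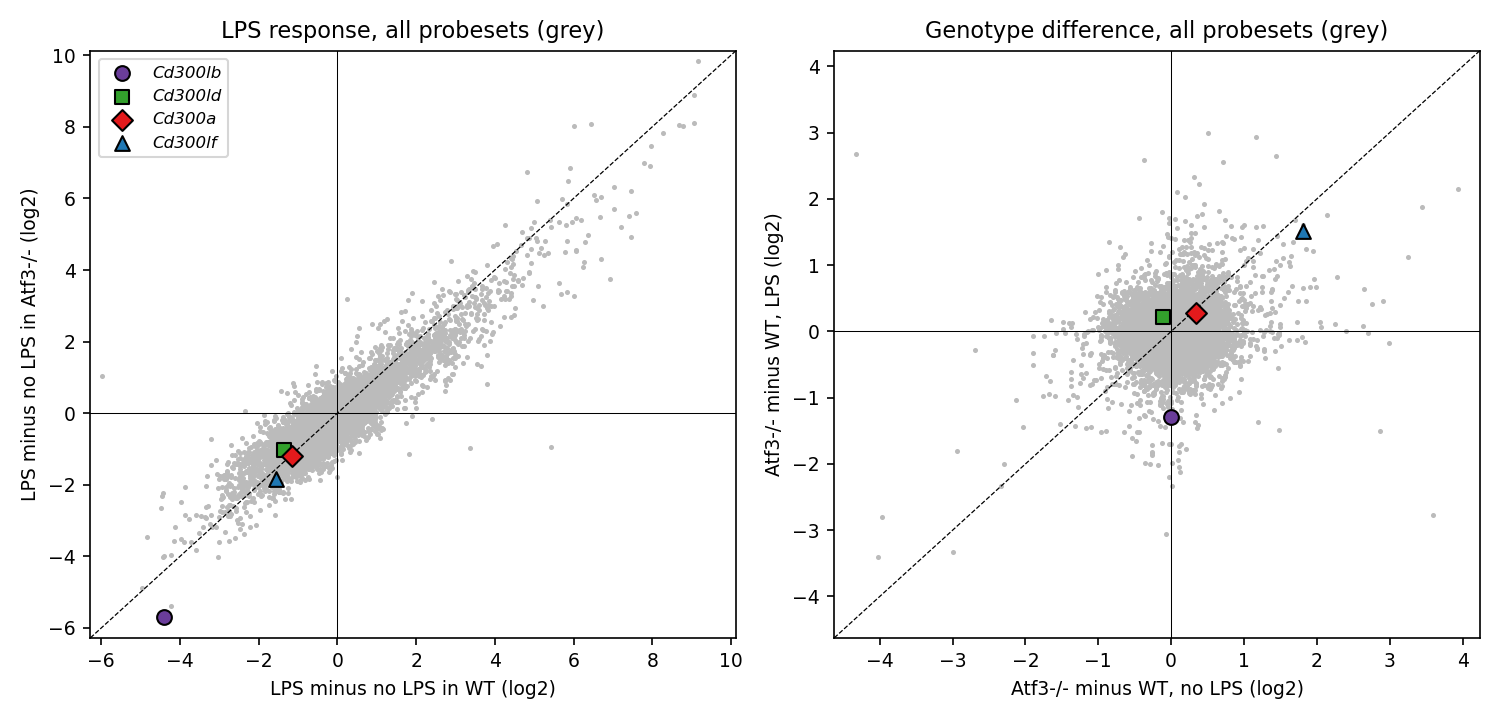
Fitted log2 differences of all 16860 genes (grey) and the 4 Cd300 genes (coloured), for LPS minus no LPS in wild type (x) against Atf3-/- (y) on the left, and for Atf3-/- minus wild type without LPS (x) against with LPS (y) on the right. The dashed line marks equal values. Cd300lb sits at the lower left end of the LPS panel and at -0.0023 and -1.30 in the genotype panel, where Cd300lf sits at 1.81 and 1.51.

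Genes with the combination shown by Cd300lf were also counted. Genes called higher in Atf3-/- in both conditions and at least 2-fold higher in both numbered 25, or 0.148% of all. Of these, 5 genes (0.0297% of all), Cd300lf among them, were also at least 2-fold lower with LPS in both genotypes. The combination was set after the values of Cd300lf were seen, and nothing is read from its count.

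The 4 Cd300 genes were not each other's closest match across the arrays. Likeness was measured as the distance between the values of 2 genes over the 10 arrays after each gene's own mean was subtracted. None of the 3 genes nearest to each was another of the 4. Only 3 of 16860 genes were looked at each time, and the distance depends on the size of the LPS difference. Nothing about the family is read from this. The nearest to Cd300lb was ENSMUSG00000038332, at a root mean square distance of 0.256 log2 units per array and a Pearson r of 0.996 over 10 arrays. Its LPS difference was -4.22 in wild type and -5.40 in Atf3-/-. The nearest to Cd300lf was ENSMUSG00000032715, at 0.277 log2 units and an r of 0.986. Its genotype difference was 1.63 without LPS and 0.98 with LPS. An r over 0.95 was reached by 599 genes for Cd300lb, 1022 for Cd300ld, 353 for Cd300a and 48 for Cd300lf. All these correlations run over arrays that share the LPS division.

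The pair of Atf3-/- arrays with LPS was the least alike for 3 of the 4 genes. Replicate 2 lay above replicate 1 by 0.73 log2 units for Cd300a, by 0.58 for Cd300lf and by 0.11 for Cd300ld, and by -0.25, thus below it, for Cd300lb. For Cd300ld the pair of wild type arrays with LPS lay further apart, at 0.16. Replicate 2 also belongs to the high state and replicate 1 to the low one, and the part of the state in this spread was not tested.

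**Figure D4:**
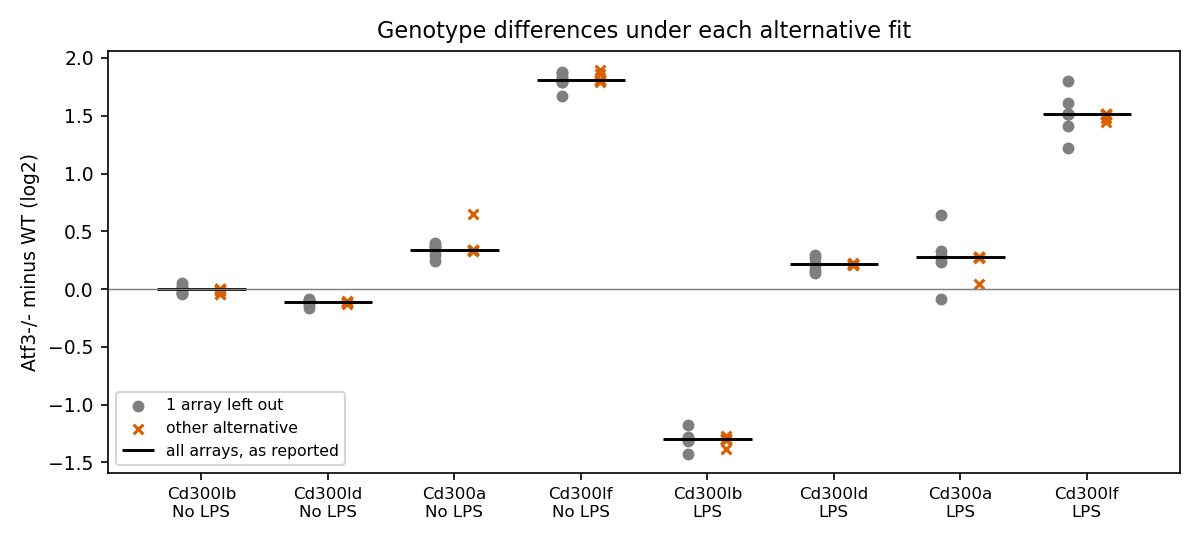
Atf3-/- minus wild type log2 differences (y axis) of the 4 genes without and with LPS (x axis), with all arrays as reported (black line), with 1 array left out (grey circles) and under the other alternative fits (orange crosses). Cd300lf stays between 1.67 and 1.90 without LPS and between 1.22 and 1.80 with LPS, whereas Cd300a with LPS runs from -0.088 to 0.65.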

How the data were processed

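The deposited table gives log2 expression for each gene-level probeset in each array. The authors made it, according to the series' design text, by re-processing probe intensities of earlier arrays with CustomCDF probesets of version 13, which regroup probes by Ensembl gene, and the tool affy 1.26.1 is listed in the submitters' processing notes. For background correction, normalization, summarisation and genome build the sources used here give nothing, so differences rest on the submitters' normalization. The table held 16860 probesets with 0 missing values. No 2 arrays were identical. Precision is limited by the number of arrays.

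One model with a mean for each group was fitted to all 10 arrays in limma 3.58.1 (lmFit and eBayes, R 4.3.3), with 6 residual and 5.44 prior degrees of freedom, after the fit had been tested on simulated data. SEs are the fit's moderated ones. Alternatives were quantile normalization, subtraction of array medians, a block for the replicate number, removal of genes under the 40th percentile of mean level, a trended robust prior, fits of only the arrays compared, and leaving out each array. A covariate for the state of the arrays was added after the values were seen. It was set from probesets with a gap of at least 4 log2 units between high and low arrays that cut across treatment and genotype. Its effect came from the Atf3-/- arrays alone, since only their groups held both states, and was assumed equal in wild type.

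Members, lists and tests were chosen with earlier results of these data known. The rule for named genes took all members, other Cd300 genes with a probeset, the largest differences in lists of adaptors, paired receptors and apoptotic-cell receptors, genes near the cluster, and the genes nearest each member. The RefSeq gene table used here held no Ensembl IDs, so that 0 of the 16860 IDs could be matched to a name. The lists, the neighbours, Atf3 and the cell type markers were therefore not analysed here. The planned covariate from named sex-linked genes was replaced by the state. Of the nearest genes only those of Cd300lb and Cd300lf are named, by ID. Promoter windows were matched by symbol (4 of 4) and compared by local alignment (Biopython 1.88).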

Additional observations from a re-analysis of the deposited data

How the results depend on the processing

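The direction and call of Cd300lf without LPS were the same in all 17 alternatives, at 1.67 to 1.90. With LPS it kept its direction in 17 and its call in 16, the exception being the fit of only the arrays compared, at 1.51. That fit called 63 genes with LPS in place of 662. Several alternatives could not move the difference of Cd300lf, so its direction under them was fixed in advance. These were the replicate block, removal of low-level genes, the trended prior and the fit of only the arrays compared. Leaving out an array of the other condition could not move it either. Adding the state as a covariate gave 419 called genes with LPS and 1052 without, in place of 2157, and Cd300a was at -0.68 for LPS in wild type, -0.61 for the response difference and 0.65 (past the threshold) without LPS. The cause was not tested.

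With 1 array left out, genotype calls ran from 1193 to 2418 without LPS and from 231 to 971 with LPS, the lowest being without Atf3-/- unstimulated replicate 2 and without wild type LPS replicate 1. Cd300lb ran from -5.83 to -5.58 for LPS in Atf3-/-, from -1.42 to -1.17 for the response difference and from -1.42 to -1.17 between genotypes with LPS. Cd300a ran from -1.58 to -0.84 for LPS in Atf3-/-, from -0.43 to 0.31 for the response difference, from 0.25 to 0.40 between genotypes without LPS and from -0.088 to 0.65 with LPS. Cd300lf ran from -2.14 to -1.56 for LPS in Atf3-/- and from -0.59 to -0.0036 for the response difference. Cd300ld ran from -1.43 to -1.27 for LPS in wild type and from 0.25 to 0.41 for the response difference. A group left with 1 array was assumed to vary like the others.

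Whether the replicate numbers pair the samples cannot be told from the values. Of 13 same-numbered pairs of arrays 7 had deviations correlated over 0.1, and 3 of 6 arrays without LPS correlated best with their own number. These 13 correlations ran from -0.065 to 0.30. They are not separate observations, since deviations within a group of 2 arrays are mirror images. Thus Atf3-/- and wild type with LPS gave 0.19 for replicate 1 and again for replicate 2. No count of differently numbered pairs is set beside them. A block for the replicate number called 2556 genes without LPS in place of 2157, and 806 with LPS in place of 662. The replicate block left every call of the 3 tested genes as it was, with Cd300lf at 1.81 without LPS (limma adjusted p = 1.88e-04) and 1.51 with LPS (limma adjusted p = 0.00318).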
